A study of Mus musculus with 20 samples.

Results

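The collagen genes of the mouse habenula were taken as every gene whose symbol reads Col, a number, the letter a and a number. The rule found 44 of 37994 genes in the deposited table of a developmental series and the same 44 among 36104 genes in that of a second set, and measured values played no part in it. The habenula is a paired structure of the epithalamus that relays signals from the forebrain to the midbrain. Its cells had been profiled with Cel-seq2, which lyses single cells in the wells of a plate and counts transcripts by unique molecular identifiers (UMIs), on 20 plates of 384 wells. The series used the Brn3a-tauLacZ mouse line, whose name joins Brn3a, the older name of Pou4f1, to a tau-tagged lacZ reporter. It had a single plate for E12 and 2 plates for every other stage, namely E11, E13, E15, E18, P4, P7 and adult. Plates of the second set were all labelled E18 and C57BL/6, and divided into 2 left, 2 right and 1 that joined both sides; the title of that last one reads E1, and the stage in its remaining labels was taken. The sources used here give no sort gate, sex, number of mice, adult age or genotype at the reporter locus. Nothing in the labels ties plates to separate animals, so the p-values measure the spread between plates, which may be technical. A sequencing run took 5 plates, per the labels, without saying which, so run and stage cannot be told apart.

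Collagens are trimers of chains that wind into a triple helix. Fibrillar chains (types I, II, III, V, XI, XXIV and XXVII) build the fibrils of connective tissue, type IV chains build the network of basement membranes, and FACIT chains (fibril-associated collagens with interrupted triple helices) sit on fibrils. Multiplexins and type VI chains link basement membranes to the matrix around them, and transmembrane collagens span the cell membrane and can be shed from it. In the brain, fibroblasts of the meninges, pericytes and endothelial cells are known as main sources of fibrillar and type IV chains, while the transmembrane collagen Col25a1 is known from neurons.

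The members are spread over the genome, and some lie in pairs. Col4a1 (chr8:11198423-11312826, minus strand) and Col4a2 (chr8:11312805-11449287, plus strand, GRCm38, GENCODE M21) stand head to head and overlap by 22 bases. Col4a4 and Col4a3 on chromosome 1 stand head to head 71 bases apart, and Col4a6 and Col4a5 on chromosome X 1308 bases apart. Col25a1 (chr3:130131501-130599877, plus strand) and Col16a1 (chr4:130047840-130099283, plus strand) have no other member beside them. Below are the 250 bases before the RefSeq start of 4 members, shown because Col25a1, Col16a1 and Col11a1 rose with stage in Pou4f1 wells while Col3a1 was low there and high in other wells. The sequences are RefSeq's, from GRCm38.p6, read 5′ to 3′ on the gene's strand, and capitals mark GGGCGG (GC box), CCAAT and TATAAA on either strand.
Col25a1, chr3:130180595-130180844, plus strand: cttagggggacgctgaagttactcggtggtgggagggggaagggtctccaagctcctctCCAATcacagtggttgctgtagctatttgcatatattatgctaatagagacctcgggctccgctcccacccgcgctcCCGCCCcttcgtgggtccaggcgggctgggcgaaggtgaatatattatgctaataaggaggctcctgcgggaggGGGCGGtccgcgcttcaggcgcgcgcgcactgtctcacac
Col16a1, chr4:130047590-130047839, plus strand: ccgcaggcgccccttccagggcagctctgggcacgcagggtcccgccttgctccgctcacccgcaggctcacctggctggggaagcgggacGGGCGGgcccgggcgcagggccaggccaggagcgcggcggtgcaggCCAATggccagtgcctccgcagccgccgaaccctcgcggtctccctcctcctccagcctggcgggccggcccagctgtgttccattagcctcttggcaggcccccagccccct
Col11a1, chr3:114030290-114030539, plus strand: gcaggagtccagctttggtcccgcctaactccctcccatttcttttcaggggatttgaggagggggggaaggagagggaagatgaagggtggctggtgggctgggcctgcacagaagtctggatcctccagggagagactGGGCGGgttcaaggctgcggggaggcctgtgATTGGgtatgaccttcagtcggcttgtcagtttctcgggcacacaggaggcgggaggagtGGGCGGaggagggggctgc
Col3a1, chr1:45311288-45311537, plus strand: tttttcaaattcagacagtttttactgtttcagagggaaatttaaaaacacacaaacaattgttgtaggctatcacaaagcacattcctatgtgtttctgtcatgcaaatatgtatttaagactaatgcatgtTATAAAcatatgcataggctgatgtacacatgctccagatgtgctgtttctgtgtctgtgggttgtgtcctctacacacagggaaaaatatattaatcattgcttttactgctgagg
The Col25a1, Col16a1 and Col11a1 windows each hold GGGCGG and CCAAT (on one strand or the other), and the Col3a1 window holds TATAAA and neither of these. Of 11 members whose window holds both GGGCGG and CCAAT, 5 were lower in Pou4f1 wells like Col3a1, namely Col18a1, Col1a2, Col4a1, Col4a2 and Col4a5. Another of the 11, Col6a4, was not tested. Among all members 25 of 36 tested were lower, as were 19.9% of all genes, so the 5 are not read as a result about the motifs. Being lower than in other wells is a different comparison from rising with stage. Col4a2 was also called higher at P4 and P7 than at E11. The RefSeq start of Col25a1 lies 49344 bases inside the gene as GENCODE draws it. RefSeq windows of 300 bases, 250 before and 50 after the start, were found for 35 of the 44 members. GGGCGG occurred in 22 of them (62.9%, against 35.7% of all 32851 windows in the table), CCAAT in 12 (34.3% against 37.4%) and TATAAA in 5 (14.3% against 13.6%), with both strands searched and matches of different motifs allowed to overlap. The median GC content was 60.0% in the windows of members and 52.7% in all windows, and its part in the GGGCGG share was not tested. For each member 1 window, the nearest to the GENCODE start, was compared with every window. A match describes the letters and is not evidence of binding.

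Wells were kept with at least 1000 UMIs and 500 genes, and with mitochondrial UMIs at 20% or less; these were 3729 of 5756 wells in the series and 1082 of 1920 in the second set. A kept well with a Pou4f1 value of 1 or more is called a Pou4f1 well, which gave 2933 such wells and 796 other wells in the series and 727 and 355 in the second set. Levels are CPM, a gene's counts for each 1000000 counts of all genes, summed over a class of wells on a plate; each count is 1 tagged molecule, so no division by gene length was made. Totals behind a level ran from 556190 to 7421720 counts a plate in Pou4f1 wells and from 92455 to 1689820 in other wells, so a plate at 0 allows up to 0.404 to 5.39 CPM in the first and 1.78 to 32.4 CPM in the second, from 3 counts and for counting error only. The summed neuron markers were 7373 to 17031 CPM (median 9502) in Pou4f1 wells and 1698 to 10387 CPM (median 3186) in others. These ranges overlap, so the classes are named by Pou4f1 and not as neurons and other cells. Summed endothelial markers were 7.44 to 229 CPM (median 28.0) against 24.1 to 1803 CPM (median 252), mural markers 4.34 to 1399.6 CPM (median 22.2) against 58.4 to 2975 CPM (median 634), and fibroblast or meningeal markers 1.89 to 1171 CPM (median 51.3) against 17.2 to 9826 CPM (median 971), with 0 to 8 of the 10 fibroblast markers at 0 on a plate's other wells. A well with 3 or more of these 26 vascular and fibroblast markers (24 in the second set, where Cldn5 and Higd1b were not analysed here) is called a vascular-marker well. E13 plate 2 stands apart, with 60 of 70 Pou4f1 wells and 59 of 67 other wells of that kind, as does adult plate 1 with 14 of 21 Pou4f1 wells, and E18 plate 1 had 28.1% Pou4f1 wells. Plates of a set shared 382 to 384 well numbers and no 2 wells held identical values.

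Across the 15 plates, Col25a1 had the highest mean level in Pou4f1 wells, 208 ± 251 CPM (SD, n = 15), followed by Col4a1, Col4a2, Col2a1 and Col16a1 at 74.4, 68.2, 62.8 and 52.9 CPM. The Col4a1 and Col4a2 means rest on E13 plate 2, at 664 and 461 CPM: without it they were 32.3 and 40.2 CPM, under Col2a1 at 60.8 and Col16a1 at 56.5 CPM. By median the order was Col25a1, Col11a1, Col4a2, Col2a1 and Col16a1, at 49.7, 40.6, 36.9, 24.4 and 22.1 CPM. In other wells the order was Col3a1 with 1161 ± 2399 CPM, then Col1a2, Col1a1, Col4a1 and Col4a2 with 911, 848, 585 and 464 CPM. Without P7 plate 1 the means were 762 for Col3a1, 550.1 for Col1a2, 473 for Col1a1 and 373 for Col4a1, and without E18 plate 2 Col3a1 was at 724 CPM. By median the order in other wells was Col4a1, Col4a2, Col3a1, Col1a2 and Col2a1, at 315, 193, 136, 119.8 and 108 CPM, with Col1a1 at 60.5 CPM. The SDs exceed the means, and neighbours in either order do not differ beyond their spread over plates. All collagens together made up 150.4 to 1854 CPM of Pou4f1 wells (median 771) and 296 to 30712 CPM of other wells (median 2013), and were lower in Pou4f1 wells on 15 of 15 plates, though the ranges overlap.

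**Figure D1:**
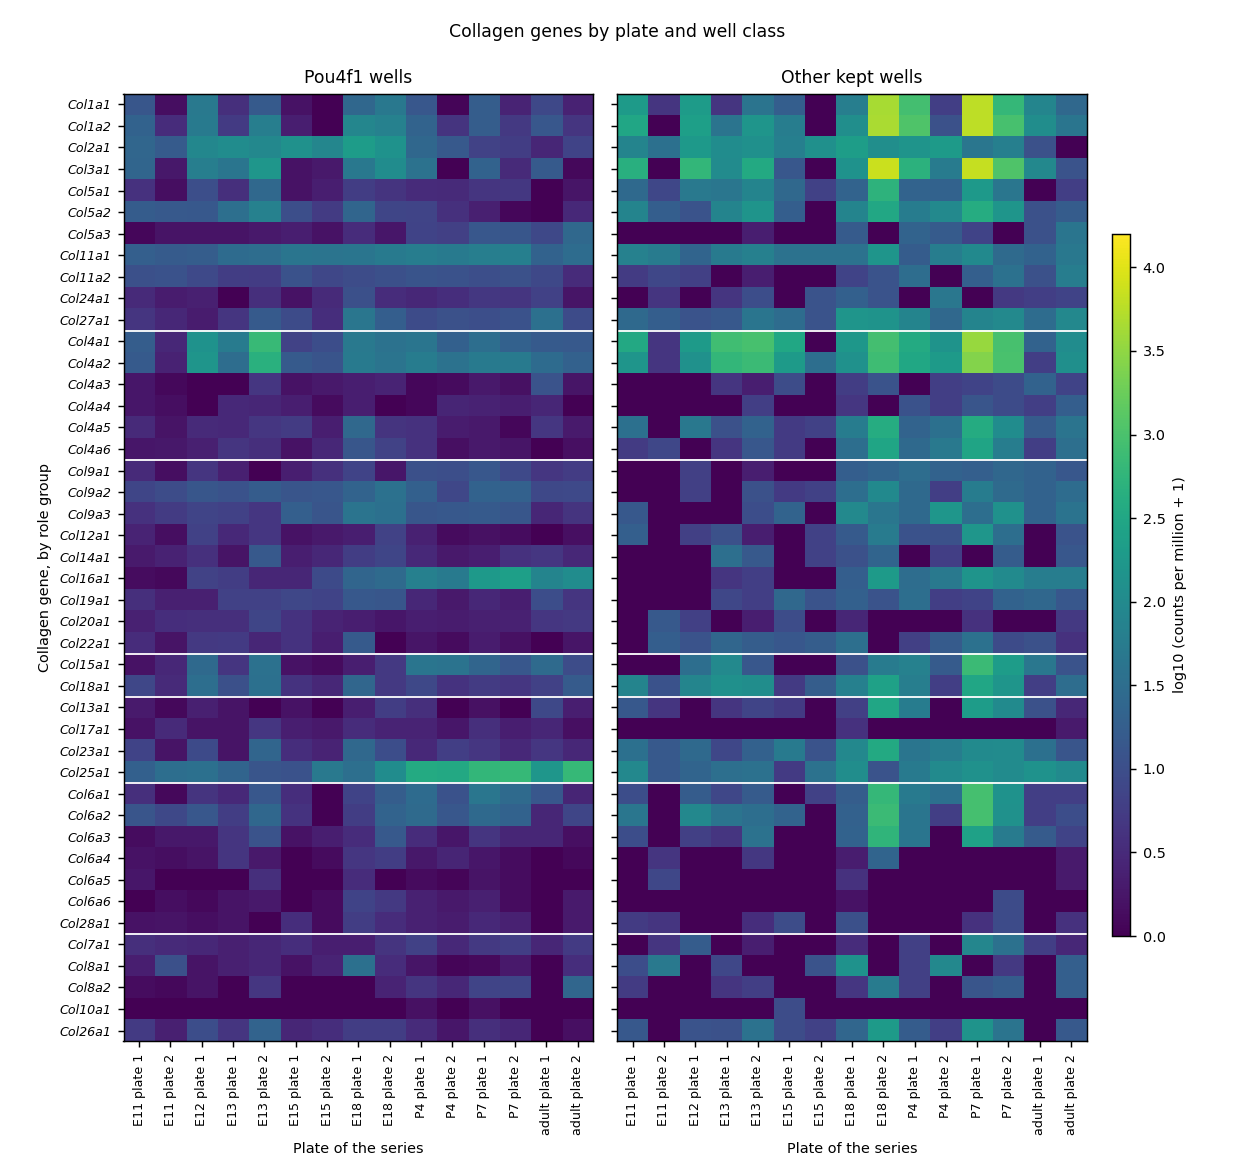
Level of each of the 44 collagen genes, as log10 of CPM plus 1, in Pou4f1 wells (left) and other kept wells (right) of the 15 plates of the series, with genes ordered by role and white lines between roles. In Pou4f1 wells Col16a1 brightens from E18 on and Col25a1 from P4 on, and Col1a1, Col1a2 and Col3a1 are brightest in the other wells of E18 plate 2 and P7 plate 1.

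The collagens differed in how their counts were spread over wells. The 10 wells richest in Col1a1 held 66.4% of its 3674 counts in the series, those of Col1a2 55.8%, of Col3a1 52.3%, of Col13a1 55.8% and of Col8a1 60.2%. The same share was 4.80% for Col25a1, 4.44% for Col11a1 and 7.59% for Col2a1, whose counts came from many wells. Vascular-marker wells held 14.6% of the counts of all genes. They held 94.8% of Col1a1, 93.4% of Col3a1, 91.4% of Col1a2, 83.1% of Col4a1 and 70.6% of Col4a2 counts, but 12.0% of Col25a1 and 12.2% of Col16a1 counts. Pou4f1 wells held 89.5% of all counts, 96.9% of Col25a1 and 94.8% of Col16a1.

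**Figure D2:**
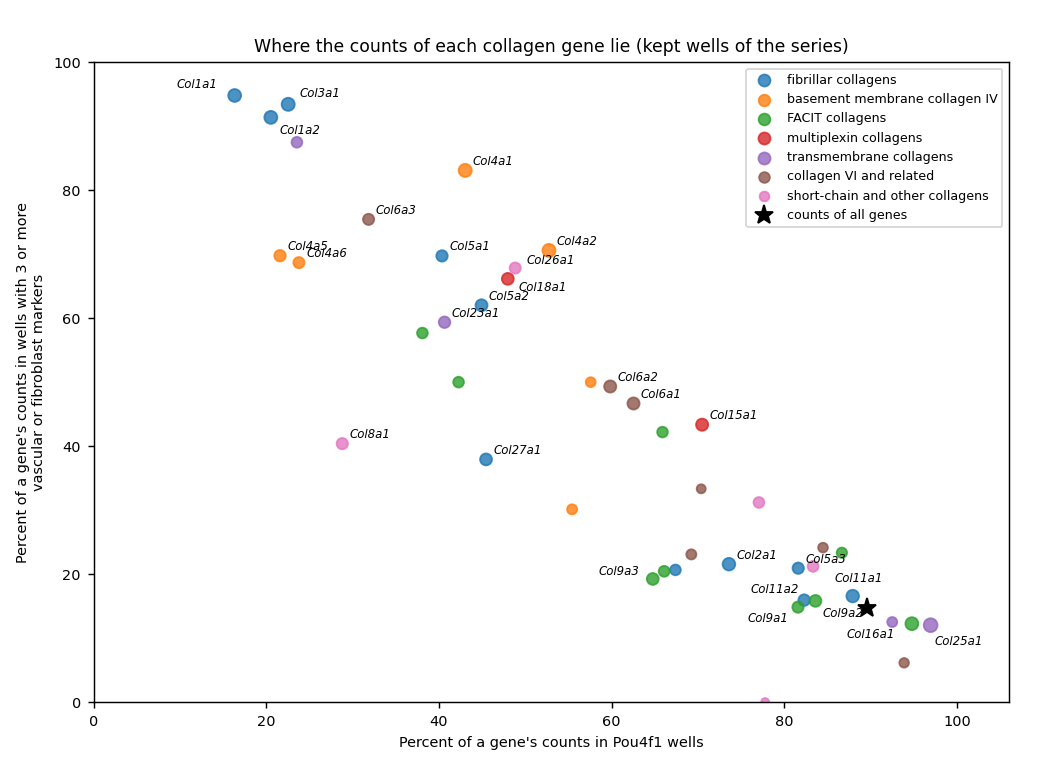
Percent of each collagen gene's counts that lay in Pou4f1 wells (x axis) and in wells with 3 or more vascular or fibroblast markers (y axis), over all kept wells of the series, with points coloured by role, sized by count, and a star for the counts of all genes. Col1a1, Col1a2 and Col3a1 sit at the top left, and Col25a1, Col16a1 and Col11a1 sit near the star at the lower right.

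By marker list, the 121 wells with 3 or more fibroblast or meningeal markers, 40 of them Pou4f1 wells, held Col3a1 at 2488 CPM, Col1a1 at 1766 CPM and Col4a1 at 1964 CPM over their pooled counts. In the 92 wells with endothelial markers Col4a1 was at 1639.8 CPM and Col1a1 at 112 CPM. Among the 410 wells with oligodendrocyte markers Col25a1 was at 401 CPM, and in the 3606 wells with neuron markers it was at 279 CPM. The latter are nearly all of the 3729 kept wells, so they do not stand for neurons alone. Most wells with oligodendrocyte markers are among them. A well can count under several lists, and these values pool plates of all stages, so they are descriptions without a test.

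Whether collagen levels differ between the well classes was asked with plate as a block, over 15 plates. Of the 44 members, 36 passed the filter on low counts and 25 were called, all lower in Pou4f1 wells (edgeR adjusted p under 0.05). Over all 14476 genes tested 40.4% were called, 20.5% higher and 19.9% lower. The median log2 difference was -2.11 over the 36 members and 0.07 over all genes. Pou4f1 wells were the deeper class on 15 of 15 plates, with plate medians of 8554 to 22885 UMIs a well against 2702 to 10942 in other wells, and a class called from 1 count depends on depth. When wells were thinned to 2000 UMIs before classes were called, 14 plates were left. There, 19 of 36 members were lower and none higher, and their median was -1.07. Over all 16016 genes of that fit 2901 were called, 1621 of them lower. Thinning decided the class only, and levels came from all counts. Wells that lost their Pou4f1 count joined the other wells, which went from 30 to 152 on P7 plate 1. The other wells of that fit thus held wells with Pou4f1 counts. With DESeq2's size factors in place of TMM scaling the median of all genes moved to -0.08. The split of calls over all genes went from 2965 higher and 2883 lower to 2061 and 3399, while 26 members were lower and none higher. With DESeq2 itself, run without the filter on low counts, the medians were -2.03 over the members and -1.87 over all genes. Without vascular-marker wells 30 members were tested, 13 were lower and 1, Col16a1, was higher, at a median of -1.18. Over all 13515 genes of that fit 4117 were called, 1921 higher and 2196 lower. Of the 25 members, 21 could be tested there and 13 were called. Leaving out those wells took E13 plate 2, E18 plate 2 and adult plate 1 under 10 wells of a class, so every value of this contrast without vascular-marker wells rests on 12 plates. With all wells of the same 12 plates, an alternative chosen after seeing the data, 38 members were tested, 22 were lower and 2, Col25a1 and Col16a1, were higher. Without E13 plate 2 and adult plate 1 together, 22 members were lower and Col25a1 was higher, with Col2a1, Col4a4 and Col9a3 no longer called. Shares of all genes in these last 2 fits are not given here.

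**Figure D3:**
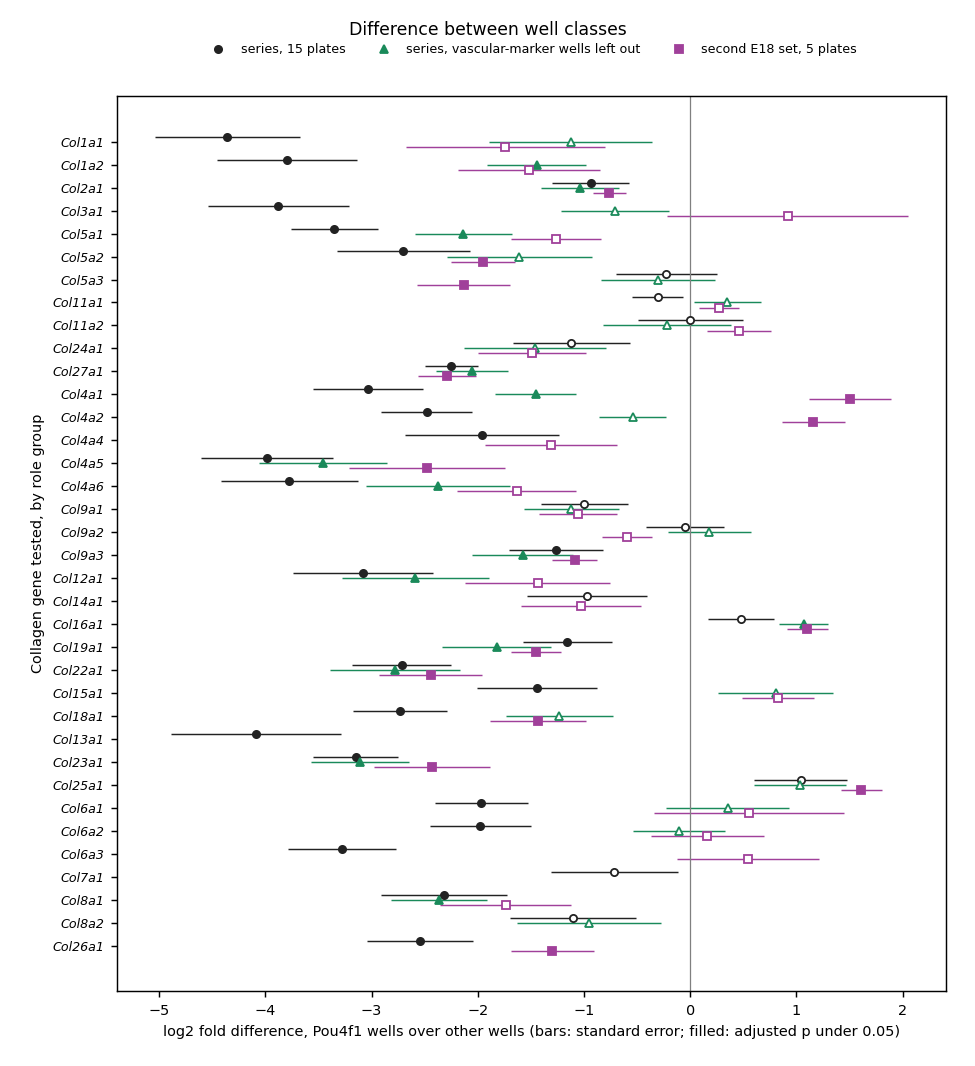
Log2 fold difference of each collagen gene tested, Pou4f1 wells over other wells, for the 15 plates of the series (circles), 12 of these plates without vascular-marker wells (triangles) and the 5 plates of the second set at E18 (squares), with bars of 1 standard error and filled symbols for an adjusted p under 0.05. The circles of Col1a1, Col13a1 and Col4a5 lie furthest left, and Col25a1 and Col16a1 lie right of 0 in all 3.

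Among fibrillar collagens, 7 of 11 were lower in Pou4f1 wells. Col1a1 and Col1a2 encode the chains of type I collagen, the main collagen of connective tissue. Col1a1 was at 0 to 48.8 CPM (median 7.19) in Pou4f1 wells and 0 to 6099 CPM (median 60.5) in other wells, lower on 14 of 15 plates, with a log2 difference of -4.36 ± 0.68 (SE) (edgeR adjusted p = 5.91e-05). Col1a2 was at 0 to 82.2 CPM (median 12.6) in Pou4f1 wells and 0 to 5959.9 CPM (median 119.8) in other wells, with -3.80 ± 0.66 (SE) (edgeR adjusted p = 1.46e-04). Col3a1, which forms type III fibrils of elastic tissues and vessel walls, was at 0 to 161 CPM (median 19.8) in Pou4f1 wells and 0 to 7280.4 CPM (median 136) in other wells, with -3.88 ± 0.66 (SE) (edgeR adjusted p = 1.14e-04). For these 3 genes the ranges of the classes overlapped, and the other wells of P7 plate 1 and E18 plate 2 were the highest. Without vascular-marker wells the difference was -1.13 ± 0.77 (SE) for Col1a1 (edgeR adjusted p = 0.298) and -0.71 ± 0.51 (SE) for Col3a1 (edgeR adjusted p = 0.328), so neither call held. Col1a2 stayed called in that fit, which also lacks E18 plate 2, as in all 27 alternatives. E18 plate 2 is not in that fit, but with all wells of its 12 plates the differences were -4.46 ± 0.77 (SE) for Col1a1 (edgeR adjusted p = 3.04e-04) and -4.07 ± 0.74 (SE) for Col3a1 (edgeR adjusted p = 3.99e-04). Col3a1 has an exon that overlaps another annotated gene, as do Col5a1 and 11 further members, and since the sources used here do not say whether counting used strand, their counts may hold reads of the neighbour.

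Col27a1, a fibrillar collagen of cartilage, was at 1.10 to 44.1 CPM (median 8.24) in Pou4f1 wells and 10.7 to 153 CPM (median 29.6) in other wells, lower on 14 of 15 plates, with -2.25 ± 0.25 (SE) (edgeR adjusted p = 1.77e-06). Its call held without vascular-marker wells (-2.05 ± 0.34 (SE), edgeR adjusted p = 1.86e-04). Col5a1 and Col5a2, chains of type V collagen that start fibrils, had differences of -3.35 ± 0.41 (SE) and -2.70 ± 0.62 (SE), both called. The lowest, median and highest levels of Col5a1 were 0, 2.73 and 25.7 CPM in Pou4f1 wells and 0, 25.1 and 519.8 CPM in other wells. Those of Col5a2 were 0, 6.48 and 69.7 CPM in Pou4f1 wells and 0, 77.6 and 399 CPM in other wells, and its call ended without vascular-marker wells, at -1.61 ± 0.68 (SE) (edgeR adjusted p = 0.0817), against -2.63 ± 0.70 (SE) with all wells of the same 12 plates. Col2a1, the cartilage collagen, which neural progenitors also make, was at 1.80 to 207 CPM (median 24.4) in Pou4f1 wells and 0 to 216 CPM (median 108) in other wells, lower on 11 of 15 plates, with -0.94 ± 0.37 (SE) (edgeR adjusted p = 0.0456). That call is at the edge, since leaving out any 1 of 9 plates took the adjusted p to between 0.0504 and 0.10. Col11a1, a chain of type XI collagen, was at 14.8 to 63.5 CPM (median 40.6) in Pou4f1 wells and 15.7 to 151 CPM (median 46.5) in other wells, and Col5a3, Col11a2 and Col24a1 were likewise not called.

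All 5 type IV chains tested were lower in Pou4f1 wells. Col4a1 and Col4a2, the chains found in nearly every basement membrane, were read side by side because their starts overlap. Col4a1 was at 1.95 to 664 CPM (median 19.3) in Pou4f1 wells and 0 to 3563 CPM (median 315) in other wells, lower on 14 of 15 plates, with -3.03 ± 0.52 (SE) (edgeR adjusted p = 1.11e-04). Col4a2 was at 1.52 to 461 CPM (median 36.9) in Pou4f1 wells and 3.44 to 2609 CPM (median 193) in other wells, lower on 13 of 15 plates, with -2.48 ± 0.43 (SE) (edgeR adjusted p = 1.32e-04). For both, the highest Pou4f1 value was that of E13 plate 2, at 664 and 461 CPM, where most wells of either class were vascular-marker wells. Without such wells Col4a1 stayed called at -1.46 ± 0.38 (SE) (edgeR adjusted p = 0.00665), whereas Col4a2 was at -0.54 ± 0.32 (SE) (edgeR adjusted p = 0.216). Col4a5 and Col4a6, the paired chains of the X chromosome, had levels of 0.184, 2.19 and 25.7 CPM in Pou4f1 wells and 0, 34.9 and 401 CPM in other wells, and of 0, 0.943 and 12.3 CPM in Pou4f1 wells and 0, 12.6 and 292 CPM in other wells, in the order lowest, median and highest. Their differences were -3.98 ± 0.62 (SE) and -3.77 ± 0.64 (SE), and both were called without vascular-marker wells too. Col4a4, a chain of kidney and inner ear basement membranes, was at or under 16.8 CPM on every plate (0 to 2.05 CPM (median 1.22) in Pou4f1 wells, median 3.55 in others), with -1.96 ± 0.72 (SE) (edgeR adjusted p = 0.0374). Leaving out E18 plate 1, P4 plate 1 or P7 plate 2 ended the Col4a4 call, at adjusted p from 0.0539 to 0.0839.

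Of the FACIT collagens, 4 of 8 tested were lower in Pou4f1 wells. Col12a1, which coats type I fibrils, was at 0 to 5.67 CPM (median 0.943) in Pou4f1 wells and 0 to 163 CPM (median 10.1) in other wells, with -3.08 ± 0.66 (SE) (edgeR adjusted p = 9.50e-04). Col22a1, known from tissue junctions, was at 0 to 14.7 CPM (median 1.08) in Pou4f1 wells and 0 to 35.4 CPM (median 12.6) in other wells, with -2.71 ± 0.47 (SE) (edgeR adjusted p = 1.38e-04), and both calls held without vascular-marker wells. Col9a3, a chain of the type IX collagen of cartilage, was at 1.80 to 40.4 CPM (median 11.6) in Pou4f1 wells and 0 to 159.6 CPM (median 20.9) in other wells, with -1.26 ± 0.44 (SE) (edgeR adjusted p = 0.0267). Col19a1, a basement membrane zone collagen that neurons are known to make, was at 0.949 to 13.5 CPM (median 3.48) in Pou4f1 wells and 0 to 31.3 CPM (median 10.8) in other wells, with -1.16 ± 0.42 (SE) (edgeR adjusted p = 0.0328). The Col9a3 call ended without any 1 of E18 plate 1, P4 plate 2, P7 plate 2 and adult plate 2, and the Col19a1 call without any 1 of E15 plate 1, P4 plate 1, P7 plate 2, adult plate 1 and adult plate 2, at adjusted p up to 0.0813 and 0.0817. Col16a1, a FACIT collagen of many tissues, was at 0.217 to 235 CPM (median 22.1) in Pou4f1 wells and 0 to 195 CPM (median 17.2) in other wells and higher on 13 of 15 plates, with 0.48 ± 0.31 (SE) (edgeR adjusted p = 0.234). It was called higher without E18 plate 2 (edgeR adjusted p = 0.00770), whose other wells held 195 CPM of it. The fit without vascular-marker wells, which lacks that plate too, gave 1.07 ± 0.23 (SE) (edgeR adjusted p = 0.00176), and all wells of the same 12 plates gave 0.98 ± 0.22 (SE) (edgeR adjusted p = 0.00218). Col9a1 was at -1.0 ± 0.41 (SE) (edgeR adjusted p = 0.0582), and Col9a2 and Col14a1 were not called.

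Among transmembrane collagens, Col13a1, known from neuromuscular junctions, was at 0 to 7.19 CPM (median 0.683) in Pou4f1 wells and 0 to 303 CPM (median 5.33) in other wells, lower on 12 of 15 plates, with -4.09 ± 0.80 (SE) (edgeR adjusted p = 5.02e-04). It did not pass the low-count filter once vascular-marker wells, which held 87.5% of its counts, were left out. Col23a1, a shed collagen of epithelia and the retina, was at 0.652 to 25.7 CPM (median 3.60) in Pou4f1 wells and 6.75 to 357 CPM (median 35.0) in other wells, lower on 14 of 15 plates, with -3.15 ± 0.40 (SE) (edgeR adjusted p = 6.21e-06), and -3.11 ± 0.46 (SE) without those wells. Col25a1, a neuronal collagen needed by motor neurons to reach muscle, went the other way. It was at 10.6 to 658 CPM (median 49.7) in Pou4f1 wells and 4.19 to 138 CPM (median 52.2) in other wells, higher on 11 of 15 plates, with 1.04 ± 0.44 (SE) (edgeR adjusted p = 0.0648), which misses the threshold. Leaving out E11 plate 1, E13 plate 2 or E18 plate 1 brought it past the threshold, at adjusted p of 0.0172, 0.0275 and 0.0188. It also passed with wells of at least 2000 UMIs (edgeR adjusted p = 0.0316). When wells were thinned to 2000 UMIs before classes were called, the difference was -0.04 (edgeR adjusted p = 0.943). The other wells of that fit included wells that had lost their Pou4f1 count by thinning, so the classes were not those of the main fit.

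All 3 type VI chains tested, which form beaded filaments around cells, were lower in Pou4f1 wells. Col6a1 was at 0 to 43.4 CPM (median 6.12) in Pou4f1 wells and 0 to 902 CPM (median 15.1) in other wells, with -1.97 ± 0.44 (SE) (edgeR adjusted p = 0.00122). Col6a2 was at 0 to 26.9 CPM (median 11.7) in Pou4f1 wells and 0 to 900.3 CPM (median 31.6) in other wells, with -1.97 ± 0.47 (SE), and Col6a3 at 0.404 to 13.8 CPM (median 1.80) in Pou4f1 wells and 0 to 564 CPM (median 8.75) in other wells, with -3.28 ± 0.51 (SE). Without vascular-marker wells Col6a1 turned to 0.35 ± 0.58 (SE) (edgeR adjusted p = 0.703), Col6a2 was at -0.10 ± 0.43 (SE), and Col6a3 did not pass the filter. Both multiplexins, which tie basement membranes to the matrix, were lower as well. Col18a1, the source of endostatin, was at 1.89 to 34.9 CPM (median 5.39) in Pou4f1 wells and 4.19 to 311 CPM (median 65.7) in other wells, with -2.73 ± 0.44 (SE) (edgeR adjusted p = 6.98e-05), and -1.23 ± 0.50 (SE) without vascular-marker wells (edgeR adjusted p = 0.0699). Col15a1 was at 0.314 to 41.6 CPM (median 8.47) in Pou4f1 wells and 0 to 726 CPM (median 14.9) in other wells, with -1.44 ± 0.57 (SE) (edgeR adjusted p = 0.0469), and turned to 0.80 ± 0.54 (SE) without those wells (edgeR adjusted p = 0.290). The Col15a1 call also ended when any 1 of 8 plates was left out, at adjusted p from 0.0518 to 0.145.

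In the short-chain and remaining group, Col8a1, a collagen of vessel walls and the cornea, was at 0 to 34.3 CPM (median 1.21) in Pou4f1 wells and 0 to 137 CPM (median 5.22) in other wells, with -2.32 ± 0.59 (SE) (edgeR adjusted p = 0.00400), and 63.8% of its counts came from E18 plate 1. Col26a1 was at 0 to 21.1 CPM (median 2.52) in Pou4f1 wells and 0 to 195 CPM (median 13.1) in other wells, with -2.54 ± 0.50 (SE) (edgeR adjusted p = 4.59e-04). Col7a1 and Col8a2 were tested and not called. The 8 members that did not pass the filter were Col10a1, Col17a1, Col20a1, Col28a1, Col4a3, Col6a4, Col6a5 and Col6a6, with 9.0 to 120.0 counts each in the series. In all, 12 of the 25 called members kept their call in every alternative in which they were tested: Col12a1, Col13a1, Col1a2, Col23a1, Col26a1, Col27a1, Col4a1, Col4a5, Col4a6, Col5a1, Col6a3 and Col8a1. Not all of them were tested in each alternative. Col13a1 and Col6a3, for example, did not pass the filter without vascular-marker wells.

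Genes that work with collagens were read from lists of their roles in the same fit. Of 28 enzymes and chaperones of collagen assembly, 15 were lower in Pou4f1 wells and none higher, among them Serpinh1 (-3.17 ± 0.50), the collagen chaperone of the endoplasmic reticulum, Loxl3 (-3.74 ± 0.54), which crosslinks chains, Plod1 (-2.58 ± 0.41), a lysyl hydroxylase, and Pcolce (-3.53 ± 0.78), which aids propeptide removal. Of 10 receptors, 7 were lower and none higher, including the discoidin receptor Ddr2 (-3.24 ± 0.62) and the integrins Itga1 (-2.43 ± 0.48) and Itgb1 (-1.0 ± 0.23). Basement membrane partners were lower in 12 of 13 cases, led by Nid1 (-4.19 ± 0.61), which links laminin to type IV collagen, Sparc (-4.17 ± 0.55), a collagen-binding protein, and Fn1 (-4.17 ± 0.66). Of 8 enzymes and inhibitors of collagen breakdown, 4 were lower, with Timp3 at -3.38 ± 0.43 and Mmp14 at -2.63 ± 0.55, and 1 higher, the membrane protease Mmp16 at 0.51 ± 0.19. These lists had medians of -0.94, -1.73, -2.90 and -1.60 on the log2 scale, against 0.07 for all genes, of which 40.4% were called and 19.9% were lower, and all endothelial, mural and fibroblast markers were lower too, in 8 of 8, 8 of 8 and 10 of 10 cases.

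The second set gave the same contrast at E18 in other mice. Of 37 members tested over 5 plates, 16 were called, 4 higher and 12 lower in Pou4f1 wells (edgeR adjusted p under 0.05), where 17.2% of all 15264 genes were called, 7.34% higher and 9.87% lower. Col25a1 was at 260.2 and 182 CPM in Pou4f1 wells of the left plates, 244 and 247 CPM on the right and 339 CPM on the plate of both sides. In other wells it was at 120.4, 77.4, 82.9, 49.5 and 125 CPM in that order. The classes did not overlap, and the difference was 1.61 ± 0.19 (SE) (edgeR adjusted p = 1.47e-04). Col16a1 was at 30.4 to 74.0 CPM (median 72.6) against 19.3 to 42.1 CPM (median 29.7), higher on 5 of 5 plates though the ranges overlap, with 1.10 ± 0.19 (SE) (edgeR adjusted p = 0.00199).

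The type IV pair Col4a1 and Col4a2 was also higher in Pou4f1 wells of the second set. Col4a1 was at 28.0, 27.4, 44.5, 28.6 and 19.3 CPM in Pou4f1 wells and at 14.7, 0, 7.41, 5.30 and 14.7 CPM in others, in the order left 1, left 2, right 1, right 2 and both sides. The classes did not overlap and the difference was 1.51 ± 0.38 (SE) (edgeR adjusted p = 0.0181). Col4a2 had 1.16 ± 0.29 (SE) (edgeR adjusted p = 0.0177), from 39.9 to 66.3 CPM against 4.07 to 36.2 CPM, again without overlap. Leaving out right plate 1 or right plate 2 ended the Col4a1 call (edgeR adjusted p = 0.0863 and 0.0622), and leaving out either of these or the plate of both sides ended that of Col4a2 (edgeR adjusted p = 0.0827, 0.0543 and 0.0517). Both stayed called without vascular-marker wells, at 1.34 ± 0.38 (SE) and 1.12 ± 0.30 (SE). Pou4f1 wells were the deeper class on 5 of 5 plates here too. Plate medians were 17908 to 40683 UMIs a well against 9841 to 16493 in other wells. A class called from 1 count depends on depth in this set as well. In other wells of the second set the summed markers were at 92.3 to 237 CPM (median 131) for 7 mural and 21.0 to 51.8 CPM (median 24.4) for 7 endothelial genes, against 8 of each in the series. None of the 6 endothelial markers tested there was called (edgeR; 1 at an unadjusted p under 0.05 and 0 with DESeq2), at a median log2 difference of -0.98. All 3 mural markers tested were lower in Pou4f1 wells, and the part of either list in these results was not tested.

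The 12 members lower in Pou4f1 wells of the second set were Col27a1 (-2.29 ± 0.27 (SE)), Col22a1 (-2.44), Col4a5 (-2.48), Col23a1 (-2.43), Col6a5 (-2.38), Col5a3 (-2.13), Col5a2 (-1.95), Col19a1 (-1.45), Col18a1 (-1.43), Col26a1 (-1.30), Col9a3 (-1.09) and Col2a1 (-0.76), on the log2 scale. Col27a1 was at 17.4 to 29.6 CPM against 35.2 to 215 CPM and did not overlap between classes. Col2a1 was at 75.0 to 129 CPM against 145 to 268 CPM, again with no overlap. Ranges of the classes did overlap for Col4a5, Col19a1 and Col6a5. The Col4a5, Col18a1 and Col26a1 calls each ended when any 1 of 3 plates was left out, and the Col23a1 call without the plate of both sides. Col6a5, with 36.0 counts in the second set, was tested in 2 fits that left out 1 plate and lost its call without right plate 1. Of the 25 members called in the series, 24 were tested in the second set and 12 were called, of which Col4a1 and Col4a2 had the other sign. Col1a1, Col1a2 and Col3a1 were at up to 8.51, 11.3 and 24.7 CPM in Pou4f1 wells of the second set. In its other wells they were at up to 13.7, 10.3 and 12.2 CPM. A single well held 114 of the 131 counts of Col3a1. Without the plate of both sides 10 of 32 members tested were called, where 1287 of all 13087 genes were.

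Whether the class difference itself differed between the E18 plates of the series and the second set was then tested in 1 model with a class by set term, a test added after both results were known; set, mouse line and run cannot be told apart in it. None of the 35 members tested passed, where 0.0942% of all 14868 genes did, 0.0673% higher and 0.0269% lower (edgeR adjusted p under 0.05). At an unadjusted p under 0.05 there were 13 members, 12 members passed without the low-count filter and 6 with DESeq2. Shares of all genes for these 3 counts are not given here, so the counts are not read as particular to collagens. For Col4a1 the log2 difference of the second set minus that of the series was 4.40 ± 0.75 (SE) (edgeR adjusted p = 0.0520), and for Col4a2 it was 3.73 ± 0.71 (SE) (edgeR adjusted p = 0.0860). Over 17 alternatives the adjusted p of Col4a1 ran from 8.58e-18 (no low-count filter) to 0.686 (without vascular-marker wells). The last fit also lacks E18 plate 2, and leaving out that plate alone gave 3.09 ± 0.71 (SE) (edgeR adjusted p = 0.175). In the series Col4a1 was at 49.0 and 37.3 CPM in Pou4f1 wells and 164 and 878 CPM in other wells of E18 plates 1 and 2. Other wells of those plates held neuron markers at a sum of 2082 and 2738 CPM and fibroblast markers at 368 and 8985 CPM. In the second set these sums were 4193 to 9957 CPM (median 7389) and 83.5 to 492 CPM (median 174). In the test between the sets no marker of either list was called (edgeR), with 8 of 10 neuron (median -1.40) and 5 of 8 fibroblast markers (median 3.22) at an unadjusted p under 0.05, and 2 and 1 called with DESeq2. Of the remaining lists, 1 of 7 astrocyte markers was called, with a lower log2 difference in the second set than in the series (list median -0.80), and the medians of endothelial and microglia markers were 1.52 and 2.16. The part of all these in the Col4a1 and Col4a2 values was not tested.

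How collagens changed with stage was asked in Pou4f1 wells over the 14 plates of the 7 stages with 2 plates. Of 39 members tested, 22 were called, where 49.4% of all 16353 genes were, so the share of members was near the background. Between E11 and the mean of P4 and P7, 12 of 39 were higher and 3 lower at the later stages (edgeR adjusted p under 0.05), against 40.6% of all genes called, 20.5% higher and 20.1% lower. The median log2 difference was 0.75 over the members tested and 0.00 over all genes. Markers of other cell types moved over the same step in these wells: of 8 astrocyte markers 3 were higher and 2 lower (median 2.59), of 9 oligodendrocyte markers 3 were higher, of 8 endothelial markers 1 was higher and 1 lower, and 6 of 10 neuron (with 1 higher), 6 of 10 progenitor and 1 of 7 microglia markers were lower. Their part in the collagen values was not tested. Between P7 and the adult 2 of 39 members were lower and none higher, against 3.68% of genes, 2.34% lower and 1.35% higher. 

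The transmembrane collagen Col25a1 rose late. In Pou4f1 wells it was at 18.6 and 32.4 CPM (E11), 34.0 (E12), 21.2 and 11.9 (E13), 10.6 and 49.7 (E15), 33.1 and 109 (E18), 374 and 342 (P4), 613 and 646 (P7) and 160.3 and 658 (adult). The 4 plates of P4 and P7 lie above all 9 earlier plates, while adult plate 1, with 21 Pou4f1 wells, lies under them and adult plate 2 beside P7. The rise from E11 to P4 and P7 was 4.28 ± 0.75 (SE) on the log2 scale (edgeR adjusted p = 8.15e-04), and the stage test gave edgeR adjusted p = 3.34e-04. In other wells the same gene was at 92.0 and 13.7 CPM at E11 and 130.1 and 103 CPM at P7, and its stage test there was not called (edgeR adjusted p = 0.226). The difference between the classes in how it changed with stage missed the threshold with edgeR (adjusted p = 0.0557) and with DESeq2 (adjusted p = 0.325). Fits that left out 1 plate leave a stage with 1 plate and called more members than the main fit, so they cannot decide this. Without vascular-marker wells the rise was 4.30 ± 0.56 (SE) (edgeR adjusted p = 5.41e-05).

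Col16a1, the FACIT collagen, rose from almost no counts. Its Pou4f1 wells were at 0.404 and 0.217 CPM (E11), 5.70 (E12), 4.78 and 1.83 (E13), 1.87 and 7.86 (E15), 22.1 and 27.5 (E18), 67.4 and 50.0 (P4), 179.9 and 235 (P7) and 77.4 and 110.4 (adult). The E11 plates rest on 2 counts and 1 count, so the pooled ratio of P4 and P7 to E11 is 424, with an exact 95% interval from 145 to 2059 for counting error only. Every plate from E18 on lies above every earlier plate, and the stage test gave edgeR adjusted p = 1.30e-06. In other wells Col16a1 was at 0 on both E11 plates, the E12 plate and both E15 plates and at 151 and 99.4 CPM at P7, and that stage test was also called (edgeR adjusted p = 0.0136). The class by stage test did not pass (edgeR adjusted p = 0.464). Without vascular-marker wells the stage contrast stayed called (edgeR adjusted p = 6.79e-08). The difference of adult over P7 was -1.21 ± 0.34 (SE) and missed the threshold (edgeR adjusted p = 0.0667).

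By P7 the rises also appeared as more wells with a count. Averaged over the plates of a stage, Pou4f1 wells with at least 1 Col25a1 count made up 15.1% at E11, 29.1% at E18 and 82.3% at P7. Thinned to 2000 UMIs a well, which left 585 Pou4f1 wells at E11, 168 at E18 and 553 at P7, the shares were 3.76%, 10.0% and 52.5%. For Col16a1 they were 0.515%, 16.4% and 64.2% before thinning and 4.30% and 26.0% at E18 and P7 after it, and for Col11a1 4.81%, 3.62% and 12.0% after it. The thinned Col11a1 share thus did not rise between E11 and E18. In other wells at P7, of which 53 reached that depth, Col25a1 was counted in 18.9% and Col16a1 in 15.4% after thinning. No class of wells here is known to lack these genes, so the part of free RNA in these shares was not tested.

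**Figure D4:**
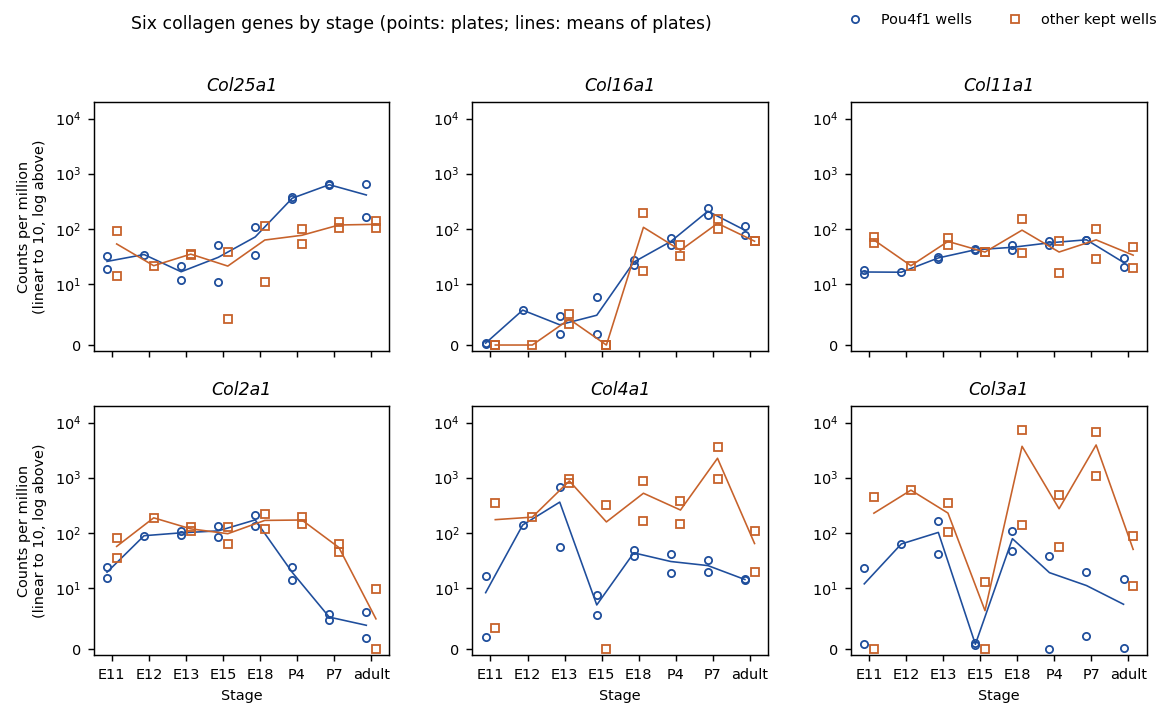
Level of 6 collagen genes by stage, in CPM (linear up to 10 and log above), with 1 point for each plate and lines through the means, for Pou4f1 wells (circles) and other kept wells (squares). Col25a1 and Col16a1 rise towards P7 in Pou4f1 wells, Col2a1 falls there after E18, and Col4a1 and Col3a1 differ widely between plates of 1 stage.

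Col11a1, the type XI chain, climbed in small steps and fell in the adult. Pou4f1 wells held 18.0 and 14.8 CPM (E11), 16.2 (E12), 28.7 and 30.3 (E13), 42.4 and 40.6 (E15), 41.7 and 50.2 (E18), 60.1 and 50.6 (P4), 62.4 and 63.5 (P7) and 19.8 and 29.1 (adult). All 4 plates of P4 and P7 lie above all 9 earlier plates, and both adult plates lie under all plates from E15 to P7. The rise from E11 to P4 and P7 was 1.91 ± 0.21 (SE) (edgeR adjusted p = 2.40e-05) and the difference of adult over P7 was -1.36 ± 0.23 (SE) (edgeR adjusted p = 0.00863). Leaving out P7 plate 1 or P7 plate 2 ended the latter call, at edgeR adjusted p of 0.0857 to 0.0894. Its level in other wells, 15.7 to 151 CPM (median 46.5), showed no call with stage (edgeR adjusted p = 0.833). Oligodendrocyte markers moved over the same step: 6 of 9 were higher in the adult than at P7 in Pou4f1 wells (median log2 difference 4.82), with sums of 146 and 35.0 CPM (P7) and 4886 and 494 CPM (adult). Also called were 2 of 10 neuron markers, lower in the adult (median -0.49), and 1 of 8 astrocyte markers, higher (median 1.34). The part of these markers in the adult values of Col11a1, and of Col9a3 given further on, was not tested.

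Col2a1, the type II chain, peaked before birth. Pou4f1 wells were at 23.5 and 15.0 CPM (E11), 88.4 (E12), 109 and 90.8 (E13), 132 and 84.6 (E15), 207 and 135 (E18), 24.4 and 13.8 (P4), 5.66 and 4.78 (P7) and 1.80 and 5.98 (adult). The 7 plates from E12 to E18 lie above all others, and the P7 and adult plates lie under E11. The stage test gave edgeR adjusted p = 3.73e-06, and the difference of P4 and P7 over E11 was -0.88 ± 0.30 (SE) (edgeR adjusted p = 0.0330). That last call ended without E11 plate 1, P4 plate 2, P7 plate 1 or P7 plate 2, at adjusted p up to 0.335. In other wells Col2a1 was still at 146 and 195 CPM at P4 and 44.3 and 63.7 CPM at P7, and the change of the class difference with stage was called (edgeR adjusted p = 0.00447). Col5a2, the type V chain, went down after E13. It was at 15.6 and 13.9 CPM (E11), 13.2 (E12), 32.8 and 69.7 (E13), 9.36 and 4.40 (E15), 22.1 and 6.48 (E18), 6.31 and 2.85 (P4), 1.35 and 0.184 (P7) and 0 and 1.99 (adult), with E13 plate 2 the highest. The difference of P4 and P7 over E11 was -2.83 ± 0.55 (SE) (edgeR adjusted p = 0.00166). Progenitor or radial glia markers fell over the same step in Pou4f1 wells, 6 of 10 of them, with a median log2 difference of -3.55 and sums of 839 and 792 CPM (E11) and 199, 192, 137 and 83.0 CPM (P4 and P7). Their part in the changes of Col2a1 and Col5a2 was not tested.

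Other fibrillar and FACIT chains also moved with stage in Pou4f1 wells. Col5a3, also a type V chain, went from 0.202 and 0.652 CPM (E11) to 5.96 and 5.22 (P4), 13.1 and 12.5 (P7) and 7.19 and 25.6 (adult), and was at most 2.45 CPM on any plate before birth. With 4 counts at E11, the ratio of P4 and P7 to E11 was 22.3 with an interval from 8.58 to 82.4 (edgeR adjusted p = 3.48e-04 for the fitted difference). Col9a3 was at 3.03 and 4.34 CPM (E11), 6.14 (E12), 5.46 and 3.67 (E13), 17.5 and 11.6 (E15), 40.4 and 34.0 (E18), 12.3 and 13.6 (P4), 14.6 and 12.1 (P7) and 1.80 and 3.23 (adult), so that the E18 plates were the highest. It rose by 1.89 ± 0.33 (SE) from E11 to P4 and P7 (edgeR adjusted p = 7.67e-04) and fell in the adult, with -2.25 ± 0.43 (SE) over P7 (edgeR adjusted p = 0.0149), a call that ended without P7 plate 1, P7 plate 2 or adult plate 2. The adjusted p was then 0.0540 to 0.136. Col9a1 went from 2.22 and 0.434 CPM at E11 to 12.9 and 7.54 CPM at P7, with 2.91 ± 0.70 (SE) (edgeR adjusted p = 0.00599), a call that ended without E11 plate 2 (edgeR adjusted p = 0.0854). Col9a2 went from 6.47 and 8.47 to 19.9 and 19.1 CPM, with 1.12 ± 0.38 (SE) (edgeR adjusted p = 0.0339), and 5 single plates ended that call. Col19a1 was highest at E18, at 13.5 and 12.1 CPM against 2.63 and 1.30 at E11 and 1.89 and 1.29 at P7 (stage test, edgeR adjusted p = 0.00736), and Col27a1 was highest there too, at 44.1 and 17.0 CPM against 3.44 and 1.95 at E11, with adult plate 1 at 34.2 CPM. Marker sums in Pou4f1 wells of E18 plates 1 and 2 were 2057 and 189 CPM for progenitor, 719 and 153 CPM for astrocyte and 1452 and 20.3 CPM for ependymal genes. Their part in the E18 levels of Col27a1, Col9a3, Col2a1 and Col8a1 was not tested.

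Among vessel-associated chains, values before birth differed widely between plates. Col4a1 was at 16.5 and 1.95 CPM (E11), 138 (E12), 55.7 and 664 (E13), 5.61 and 8.81 (E15), 49.0 and 37.3 (E18), 41.6 and 18.5 (P4), 31.4 and 19.3 (P7) and 14.4 and 13.9 (adult). E13 plate 2 and the E12 plate were the highest, and the stage test gave edgeR adjusted p = 0.00174, or 0.0705 without E13 plate 2 and adult plate 1. Col4a2 was at 14.6 and 1.52 CPM (E11), 152 (E12), 30.8 and 461 (E13), 14.3 and 11.3 (E15), 51.5 and 40.5 (E18), 56.5 and 36.9 (P4), 52.4 and 52.8 (P7) and 28.8 and 18.9 (adult). It was higher at P4 and P7 than at E11 by 2.66 ± 0.87 (SE) (edgeR adjusted p = 0.0276), a call lost without E11 plate 2 (edgeR adjusted p = 0.197), P4 plate 1 (0.0561) or P7 plate 1 (0.050, just above the threshold). Without vascular-marker wells the same contrast was 4.31 ± 0.51 (SE) for Col4a2 (edgeR adjusted p = 2.31e-05) and 3.62 ± 0.48 (SE) for Col4a1 (edgeR adjusted p = 6.22e-05), against 1.62 ± 0.84 (SE) for Col4a1 with all wells. Col15a1 was at 0.606 and 1.95 CPM (E11), 26.4 (E12), 3.41 and 35.8 (E13), 0.624 and 0.314 (E15), 1.22 and 4.05 (E18), 41.6 and 39.4 (P4), 22.2 and 13.1 (P7) and 27.0 and 8.47 (adult), so the 2 plates with values above 20 before birth were E12 and E13 plate 2. Its rise from E11 was 4.43 ± 0.81 (SE) (edgeR adjusted p = 0.00105), and 4.42 ± 0.45 (SE) without vascular-marker wells.

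The remaining members among the 22 were type VI, short-chain and other chains. Col6a1 was at 2.63 and 0.217 CPM (E11), 27.9 and 10.3 (P4) and 43.4 and 27.1 (P7), a rise of 4.18 ± 0.96 (SE) (edgeR adjusted p = 0.00443) that missed the threshold without E11 plate 2 (edgeR adjusted p = 0.0612). Col8a2 was at 0.404 and 0.217 CPM (E11, from 3 counts), 6.33 and 6.62 (P7) and 0 and 23.1 (adult), with a ratio of P4 and P7 to E11 of 14.7 and an interval from 4.91 to 72.4. Col8a1 fell, with -3.35 ± 0.99 (SE) for P4 and P7 over E11 (edgeR adjusted p = 0.0175), where E11 plate 2 at 9.80 CPM and E11 plate 1 at 1.21 CPM differ from each other and E18 plate 1 was the highest at 34.3 CPM. Leaving out E11 plate 2, P4 plate 2 or P7 plate 1 ended that call, at edgeR adjusted p of 0.0636 to 0.568. Col27a1 rose by 1.85 ± 0.67 (SE) (edgeR adjusted p = 0.0428), and as with Col8a2, leaving out any of the 6 plates in the contrast ended the call. Beside Col4a1 and Col19a1, the stage test but not the contrast called Col6a2, Col6a3, Col6a4, Col4a6 and Col1a2, at edgeR adjusted p of 0.0438, 0.0382, 0.0470, 0.0384 and 0.0450, and each of these calls ended when any 1 of 7 or more of the 14 plates was left out. Col6a2 ranged from 0 to 26.9 CPM (median 11.7), Col6a3 from 0.404 to 13.8 CPM (median 1.80), Col6a4 from 0 to 4.86 CPM (median 0.658), Col4a6 from 0 to 12.3 CPM (median 0.943) and Col1a2 from 0 to 82.2 CPM (median 12.6) over the 15 plates. Not all of the 22 members were called without E13 plate 2 and adult plate 1, and fewer were called in all without P7 plate 2. The contrast with P4 and P7 also called fewer members without E11 plate 2 or without P7 plate 1. Each of these fits leaves a stage with 1 plate, and their shares of all genes are not given here.

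Over the same step from E11 to P4 and P7, the collagen-related lists went both ways in Pou4f1 wells, where 40.6% of all genes were called, 20.5% higher and 20.1% lower. Of 27 assembly genes 5 rose, among them Colgalt2 (4.83 ± 0.71), which adds galactose to collagens, and the prolyl hydroxylase P3h2 (2.77 ± 0.45), and 5 fell, among them Serpinh1 (-2.99 ± 0.60) and Loxl2 (-3.95 ± 1.08). Of 9 receptors 1 rose, Itga11 (3.68 ± 0.67), and 3 fell, Ddr1 (-2.18 ± 0.30), Itgb1 (-1.31 ± 0.21) and Adgrg1 (-0.79 ± 0.24). Among 13 basement membrane partners Lama1 rose (1.10 ± 0.29) and Nid2 fell (-4.23 ± 0.70), and among 8 breakdown genes Timp2 rose (2.46 ± 0.26) while Mmp14 (-3.47 ± 0.91) and Mmp15 (-2.08 ± 0.31) fell. Errors are standard errors on the log2 scale, and the genes of this step were named after their values were seen.

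In other wells the stage test called 14 of 26 members tested, against 19.2% of all genes. Markers of many cell types passed the same test (edgeR): 9 of 9 oligodendrocyte, 7 of 8 astrocyte, 7 of 10 neuron, 6 of 8 endothelial, 4 of 10 progenitor, 3 of 9 fibroblast, 2 of 7 mural and 2 of 6 ependymal genes. Their part in the collagen values was not tested. The type III chain illustrates the spread between plates. Col3a1 was at 453 and 0 CPM (E11), 593 (E12), 105 and 351 (E13), 12.6 and 0 (E15), 136 and 7280.4 (E18), 491 and 54.9 (P4), 6757 and 1087 (P7) and 88.9 and 10.9 (adult) (edgeR adjusted p = 0.0427). The 2 plates of E18, of E11 and of P7 lie far apart from each other. Col15a1 (edgeR adjusted p = 0.00807) was at 726 and 208 CPM at P7 against 0 on both plates of E11 and of E15. The Col3a1 call ended when any 1 of 8 of the 14 plates was left out, and that of Col15a1 without P7 plate 1. Fewer members were called without P7 plate 1, without vascular-marker wells, and without E13 plate 2 and adult plate 1. More were called with all wells of the 12 plates that the fit without vascular-marker wells keeps. Each of these fits leaves a stage with 1 plate, whose spread is taken from the other stages. Their shares of all genes are not given here.

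Whether the class difference changed with stage was called for 5 of 36 members, against 4.93% of all 14412 genes: Col5a2 (edgeR adjusted p = 0.00123), Col2a1 (0.00447), Col3a1 (0.00842), Col1a1 (0.0140) and Col13a1 (0.0386). For Col5a2, Pou4f1 wells held 15.6 and 13.9 CPM at E11 beside 78.8 and 17.2 CPM in other wells, and 1.35 and 0.184 CPM at P7 beside 399 and 151 CPM. For Col2a1 the classes overlapped at E15, at 132 and 84.6 CPM beside 62.8 and 129 CPM, and stood apart at P7, at 5.66 and 4.78 beside 44.3 and 63.7 CPM. Col1a1 was at 16.6 and 1.66 CPM in Pou4f1 wells of P7 beside 6099 and 632 CPM, and at 7.19 and 1.49 CPM in the adult beside 79.1 and 25.7 CPM. Col13a1 was at 0.539 and 0 CPM at P7 beside 209.8 and 99.6 CPM, and its call ended without P7 plate 1 or P7 plate 2. More members were called without E13 plate 2 and adult plate 1 together, and in each fit that left out 1 plate. Such fits leave a stage with 1 plate, whose spread is taken from the other stages. Their shares of all genes are not given here, so the added calls are not read as particular to collagens. Markers of other cell types passed the same test (edgeR), namely 7 of 10 progenitor or radial glia, 5 of 10 fibroblast, 4 of 8 mural, 4 of 10 neuron, 4 of 9 oligodendrocyte, 3 of 8 astrocyte, 3 of 7 microglia, 2 of 7 ependymal and 1 of 8 endothelial genes, and their part in the result was not tested.

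No collagen passed the test of left against right habenula. None of the 33 members tested in Pou4f1 wells passed, and 0% of all 14614 genes did (0% higher and 0% lower, edgeR adjusted p under 0.05). At an unadjusted p under 0.05 there were 155 genes and 1 member, Col8a1, named after its value was seen; DESeq2 called 0 members and the test without the low-count filter 2. Col8a1 was at 18.3 and 72.6 CPM on the left and 16.6 and 1.03 CPM on the right, with 2.21 ± 0.86 (SE) (edgeR adjusted p = 1). Col25a1 had a difference of left over right of -0.12 ± 0.18 (SE) and Col16a1 of -0.06 ± 0.18 (SE). Erythroid markers differed widely between these plates, at 2327 and 19803 CPM on the left and 3902 and 278 CPM on the right; none of the 5 tested was called (edgeR; 3 at an unadjusted p under 0.05 and 0 with DESeq2; median log2 difference 2.40), and their part in the Col8a1 value was not tested. A miss of the threshold does not show that the sides are alike.

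The deposited tables also split counts into unspliced transcripts and the rest. Over all genes 23.1% of counts in kept wells of the series were unspliced, 23.3% in Pou4f1 wells and 21.6% in others. Col1a1 (0.354%), Col3a1 (0.733%), Col16a1 (2.27%) and Col4a1 (6.03%) had low unspliced shares. The share was higher for Col11a1 (41.4%), Col25a1 (60.1%) and Col19a1 (98.3%), whose levels are almost wholly those of unspliced counts. For Col25a1 both kinds rose in Pou4f1 wells, the unspliced from 13.5 and 25.0 CPM at E11 to 357 and 359.9 CPM at P7 and the rest from 5.05 and 7.40 to 256 and 286 CPM. For Col11a1 the unspliced went from 12.3 and 10.4 to 21.2 and 24.8 CPM and the rest from 5.66 and 4.34 to 41.3 and 38.7 CPM, so the larger part of its rise lay in the rest. These splits were not tested. Col25a1 and Col19a1 overlap other annotated genes on their own strand, outside shared exons. The part of those genes in the unspliced counts was not tested.

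**Figure D5:**
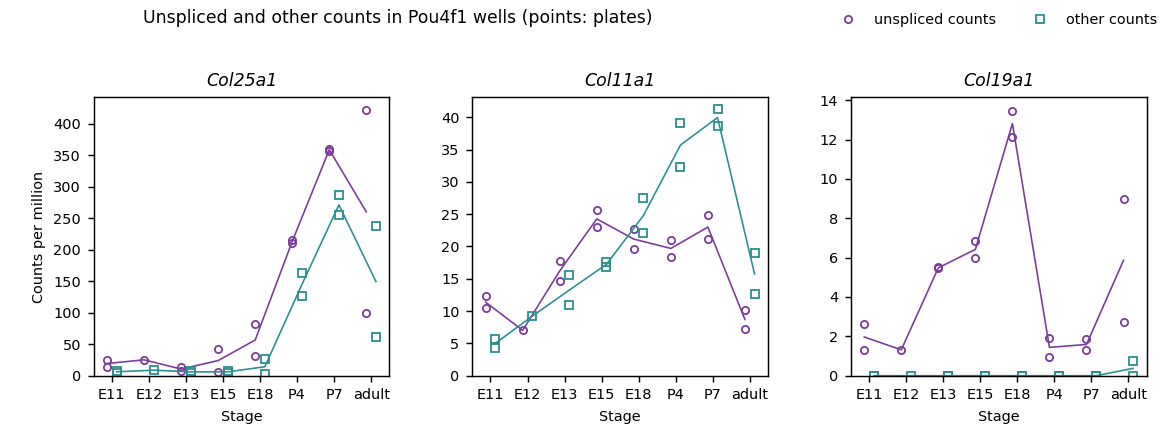
Unspliced counts (circles) and all other counts (squares) of Col25a1, Col11a1 and Col19a1 in Pou4f1 wells by stage, in CPM, with 1 point for each plate and lines through the means. Both kinds rise for Col25a1, the other counts rise more for Col11a1, and Col19a1 has almost no other counts.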

How the data were processed

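The deposited tables hold expected counts per gene and well, UMI counts that the authors corrected for collisions among the possible UMIs; that this correction explains the fractions is read from the values, all of which become whole when it is undone with 4096 possible UMIs. The submitters' processing notes name Trim Galore, STAR 2.5.3a and mm10; no source used here names the counter, its strand setting or its annotation. Counts were summed for each plate and well class without spike-ins and rounded. edgeR 4.0.16 (quasi-likelihood test, filterByExpr, TMM, R 4.3.3) was fitted to all genes with Benjamini-Hochberg adjustment, with plate as a block where the classes were compared. A plate entered a class with at least 10 wells. The plate is the replicate. CPM values are computed from these sums.

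Every member was accounted for. Those named with values passed the class test of the series or the stage test, or had one of the 5 highest mean levels in a class; Col6a5 was named because it passed in the second set, after its value was seen. The members, gene lists and tests were chosen with earlier results of these data known, and the test between the sets and the fits without E13 plate 2 and adult plate 1, or on the plates kept without vascular-marker wells, were added later. The design foresaw counts; the files hold expected counts, so sums were rounded. No doublet caller was run, and leaving out wells over 3 times their plate's median UMIs was one alternative. The fitting steps were tested on simulated counts.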

Additional observations from a re-analysis of the deposited data

Results flagged for a closer look

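For 5 collagens the difference between Pou4f1 wells and other wells was not the same at all stages, by the test of class by stage itself. The edgeR adjusted p was 0.00123 for Col5a2, 0.00447 for Col2a1, 0.00842 for Col3a1, 0.0140 for Col1a1 and 0.0386 for Col13a1. Of these, 1 kept its call in every alternative in which it was tested. At P7 all 5 were lower in Pou4f1 wells on both plates, with Col3a1 at 19.8 and 2.21 CPM beside 6757 and 1087 CPM in other wells.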

How the results depend on the processing

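Counts below are collagens called (edgeR adjusted p under 0.05 unless a tool is named), and where no value or construction is given the cause was not tested. Except where given, shares of all genes in these fits are left out, so a change in a count is not read as particular to collagens. Fits with stage that leave out a plate leave a stage with 1 plate, whose spread is taken from the other stages. Leaving out 1 plate at a time gave 20 to 26 for the class contrast in the series (25 with all plates), 6 to 24 for class by stage (5), 10 to 18 for the class contrast of the second set (16), 0 to 8 between the sets (0), 14 to 24 for stage in Pou4f1 wells (22), 6 to 21 for stage in other wells (14), 8 to 16 for P4 and P7 against E11 (15), 0 to 3 for the adult against P7 (2) and 0 to 1 for left against right (0). With no filter on low counts the counts were 20 for class by stage, 29 for stage in other wells, 8 for the adult, 2 for left against right and 12 between the sets. The filter had left out 8 members of class by stage and 9 between the sets, so members tested before also changed call there. Low p-values of the fits without the filter are not read as stronger results. Between the sets DESeq2 called 6, wells with at least 2000 UMIs gave 1, leaving out wells of very high UMI count 1, a Pou4f1 value of 2 or more 5, and recovered whole UMIs 1. Without vascular-marker wells the counts were 14 for the class contrast in the series and 6 for stage in other wells, each on 12 plates; with all wells of those plates they were 24 and 17. Class by stage called 11 without wells of very high UMI count and 9 with classes called after thinning, which gave 26 for stage in other wells. Without E13 plate 2 and adult plate 1, chosen after seeing the data, class by stage called 19 and stage in other wells 5.

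Without the plate as a block, the class contrast in the series called 14 of 18 members tested, 13 lower and 1 higher, and class by stage 2. Fewer genes passed the filter in that class contrast (10148 against 14476), and 2582 of them were called. The part of the filter in these counts was not tested. In most pairs of stages, same-numbered plates of the series did not deviate together. In Pou4f1 wells r was -0.295 to 0.511 over 21 pairs (median 0.0464), over 0.1 in 2 and under -0.1 in 3. Left and right plates of the second set, which give 1 pair, had r of 0.167 in Pou4f1 wells and 0.318 in other wells. By this measure those plates did deviate together, and the main test of left against right had no term for plate number. Col15a1 turned to 0.80 and Col6a1 to 0.35 in the class contrast without vascular-marker wells, and Col25a1 to -0.036 with classes called after thinning. Members that kept their call in every alternative in which they were tested numbered 12 of 25 in the class contrast, 13 of 22 for stage in Pou4f1 wells, 7 of 15 for P4 and P7 against E11, 8 of 16 in the second set, 2 of 14 for stage in other wells, 1 of 5 for class by stage and 0 of 2 for the adult. A level in other wells of a plate with few counts cannot be told from 0 below 1.78 to 32.4 CPM.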

Other observations

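Collagen levels were also read in wells with glial and ependymal markers. Values are CPM over pooled counts of all series wells with 3 or more markers of a list, described without a test. In the 236 wells with astrocyte markers Col27a1 was at 97.6, Col2a1 at 90.9 and Col9a3 at 52.4 CPM. Wells with neuron markers, which are nearly all kept wells, had 14.7, 45.3 and 14.4 CPM of them. The 60 wells with ependymal or choroid plexus markers held Col2a1 at 204, Col18a1 at 126, Col27a1 at 83.8 and Col9a3 at 50.0 CPM. Col18a1 was at 207 CPM in wells with endothelial markers. Progenitor or radial glia markers were met in 1127 wells, with Col2a1 at 88.1 CPM. Col5a3 was at 26.8 CPM with astrocyte and 20.7 CPM with oligodendrocyte markers, and had no count in the 44 wells with microglia markers. Many wells meet several lists, so the values of lists are not independent.

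In the class contrast of the series, all 10 neuron markers were higher in Pou4f1 wells (edgeR adjusted p under 0.05), and all 10 progenitor, 7 of 7 microglia, 7 of 9 oligodendrocyte, 7 of 8 astrocyte and 6 of 7 ependymal markers tested were lower. In the second set 5 of 10 neuron markers were higher, and 10 of 10 progenitor, 5 of 6 astrocyte, 3 of 3 mural, 5 of 8 oligodendrocyte and 2 of 5 ependymal markers tested were lower, as was 1 of 4 fibroblast markers. None of 6 endothelial and none of 6 microglia markers was called there (edgeR; 1 and 0 at an unadjusted p under 0.05, and 0 and 0 with DESeq2). There, 9 of 24 assembly genes, 4 of 11 receptors, 6 of 10 basement membrane partners and 4 of 6 breakdown genes were lower in Pou4f1 wells, and 1 receptor was higher, where 17.2% of all genes were called and 9.87% were lower.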
